A study of Homo sapiens with 6 samples.

Results

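Cytosolic and mitochondrial chaperones were followed as 52 named genes among the 26228 rows of the deposited table: the HSP70, HSP110, HSP90 and small heat shock proteins, the J-proteins, the BAG proteins, the HSP90 co-chaperones, the CCT ring, the mitochondrial chaperonin pair, the ligase STUB1 and the heat shock factors. The genes were chosen by symbol, and all 52 were found. RNA came from AsPC-1, an established human pancreatic cancer cell line grown before treatment in serum-containing medium. The 6 libraries comprised 3 vehicle controls and 3 exposed to DON (6-diazo-5-oxo-L-norleucine), a glutamine analog that blocks enzymes using glutamine. Exposure lasted 24 h, and all 6 were kept without serum during those hours. The dose of DON is not given in the sources used here, and the labels do not say whether replicates were separate cultures, so p-values measure only the spread between these libraries.

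Chaperones bind proteins that are unfolded or partly folded. In the cytosol, J-proteins deliver clients to HSP70 and stimulate its ATPase, BAG and HSP110 proteins release the nucleotide, and HSP90 with its co-chaperones finishes the folding of kinases and receptors. The CCT ring encloses actin and tubulin, and HSPD1 with its lid HSPE1 does the same for proteins imported into mitochondria. Under heat or proteotoxic stress, the transcription factor HSF1 binds heat shock elements, which are inverted repeats of the unit nGAAn, and raises many of these genes. The endoplasmic reticulum (ER) has its own HSP70 and HSP90, encoded by HSPA5 and HSP90B1, which respond to unfolded protein in the ER through other elements.

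Values are FPKM, the authors' fragment counts scaled by transcript length and library size, so levels may be compared between genes per length. They hold no read numbers, and depth is unknown. FPKM sums were 525200 to 556950 per library. The epithelial genes EPCAM, CDH1 and KRT19 together stood at 2492 to 3580 FPKM, whereas 17 markers of leukocytes, fibroblasts, endothelium, acini and islets were each below 1 FPKM in all 6 libraries. The libraries also differed along a second principal component (19.7% of the variance). It placed vehicle 1, vehicle 2 and DON 1 on one side and vehicle 3, DON 2 and DON 3 on the other, and deviations of genes from their group mean followed GC content with opposite sign on either side (Spearman 0.231 to 0.513 across genes against -0.409 to -0.424). This split was drawn from the same values that were tested. Calls made below with a term for it are therefore not independent support, and differences inside a side rest on 1 library of vehicle or of DON. HSPD1, HSPE1, HSPA8, HSP90AA1, HSP90AB1 and CCT6A have near-identical pseudogene copies, and how reads shared with these were assigned is not stated, which leaves some uncertainty in their levels. In bulk RNA of this kind, fewer cells of a type and less RNA per cell cannot be told apart.

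Of the 52 genes, 50 passed the filter of at least 1 FPKM in at least 3 libraries, and these 50 were at or above 1 FPKM in every library. Limma called 20 of 50 at an adjusted p under 0.05, or 40%, which is near the 38.9% called among all 11471 tested genes. Those 20 comprised 6 higher in DON (12%, against 18.3% of all tested genes) and 14 lower (28.0%, against 20.6%). The 14 include both HSPA1A and HSPA1B, which share reads. The median log2 fold change of the 50 was -0.09, beside -0.01 for all tested genes. Groups did not overlap in 26 of the 50, 8 higher and 18 lower, while 51.5% of all tested genes had groups apart (24.9% higher and 26.5% lower). Taken as 1 group, the chaperone genes thus had a share of calls near that of all genes, and the account turns to families and paralogs. Summed over all 52 genes, FPKM was 6751, 6765 and 6491 in vehicle and 6002, 5823 and 5519 in DON, or 1.23% to 1.25% of the table's sum in vehicle and 1.05% to 1.09% in DON. The DON sums all lay below the vehicle sums. Abundant genes weigh most in such sums: mean FPKM went from 852 to 503 for HSPA8, from 473 to 269 for HSP90AA1 and from 358 to 164 for HSPB1. Of the 50 tested genes, 31 had a log2 fold change below 0 and 19 above.

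**Figure D1:**
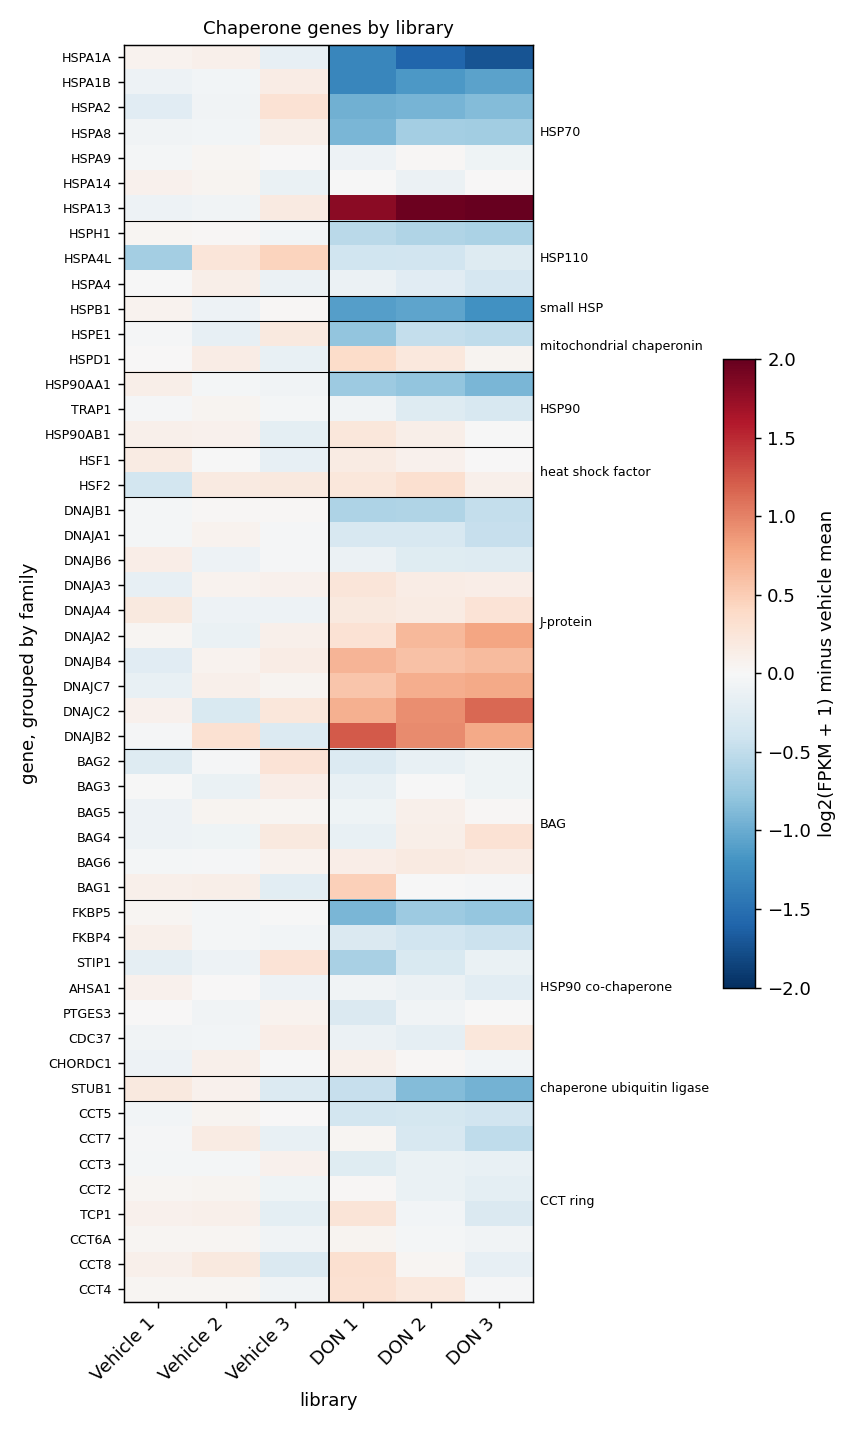
Each row is 1 of the 50 tested chaperone genes, grouped by family, and each column is 1 library. Colour is log2(FPKM + 1) minus the mean of the 3 vehicle libraries, from -2 (blue) to 2 (red). HSPA13 (log2 fold change 1.92) is the reddest row in DON and HSPA1A (-1.54) the bluest, and the J-protein block holds both colours.

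HSP70 proteins are the ATP-driven hub of the network, and 4 of 7 tested genes fell with DON while 1 rose (median log2 fold change -0.76). Among all tested genes 20.6% fell and 18.3% rose. The 4 include HSPA1A and HSPA1B, which share reads and are not separate observations. HSPA8, the constitutive cytosolic HSP70, had the highest mean of all 52 genes in vehicle, at 813, 821 and 923 FPKM in the 3 libraries. In DON it stood at 450.3, 532 and 526 FPKM. All DON values were below all vehicle values, and the log2 fold change was -0.76 ± 0.10 (SE, limma adjusted p = 0.00173). HSPA8 ranked 3 by mean in DON, behind HSP90AB1 and HSPD1, and each of these exceeded it in every DON library.

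HSPA1A and HSPA1B encode the stress-inducible cytosolic HSP70. HSPA1A read 48.4, 49.2 and 40.8 FPKM in vehicle and 17.9, 14.6 and 13.2 FPKM in DON. HSPA1B read 20.1, 20.8 and 24.0 FPKM in vehicle and 8.18, 9.20 and 9.76 FPKM in DON. Their coding sequences are nearly the same, so how reads were divided between them is uncertain. Their sum does not depend on that division, provided shared reads were neither dropped nor counted at both genes, which is not stated. It was 68.5, 70.04 and 64.8 FPKM in vehicle against 26.1, 23.8 and 23.0 FPKM in DON. That sum fell 2.79-fold (log2 fold change -1.44 ± 0.08 SE, limma adjusted p = 7.47e-05), with no overlap. The ratio of HSPA1A to HSPA1B was 1.70 to 2.41 in vehicle and 1.36 to 2.19 in DON, and these ranges overlapped.

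The promoters of this pair are printed because both genes moved together and sit beside each other on chromosome 6. RefSeq promoter windows (GRCh38.p14, 250 bases before to 50 after the start) of HSPA1A and HSPA1B were identical at 277 of 299 aligned bases (92.6%). Capitals mark 2 adjoining heat shock units and the TATA box, with HSPA1A from chr6:31815431-31815521 and HSPA1B from chr6:31827627-31827717, both on the plus strand.
HSPA1A: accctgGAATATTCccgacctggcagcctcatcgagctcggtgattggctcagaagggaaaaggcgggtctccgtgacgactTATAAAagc
HSPA1B: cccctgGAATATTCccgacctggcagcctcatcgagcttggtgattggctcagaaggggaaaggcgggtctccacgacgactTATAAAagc
A window with TATAAA on either strand was found for 14.0% of all 27305 gene symbols with a RefSeq promoter window, and 2 adjoining heat shock units (GAANNTTC or TTCNNGAA) for 16.2%.

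HSPA2, an HSP70 best known from the testis, was the other cytosolic gene of the family that fell, with vehicle at 7.19 ± 1.55 and DON at 3.29 ± 0.135 FPKM (mean ± SD over 3 libraries each, as in all such pairs), a log2 fold change of -0.92 ± 0.14 (SE, limma adjusted p = 0.00313). HSPA13, an HSP70-like ATPase of microsomes, went the opposite way. It read 12.4, 12.6 and 15.1 FPKM in vehicle and 48.7, 54.5 and 56.4 FPKM in DON, a 3.99-fold rise (log2 fold change 1.92 ± 0.11 SE, limma adjusted p = 6.29e-05). It was the largest change of either direction among the 50 tested chaperone genes. HSPA14, which with DNAJC2 forms a ribosome-bound complex, stood at 31.6 ± 2.47 and 30.7 ± 1.37 FPKM. Its 95% interval was -0.25 to 0.18 on the log2 scale. The mitochondrial HSP70, HSPA9 (mortalin), stood at 170.1 ± 4.05 and 164 ± 7.72 FPKM, with an interval of -0.24 to 0.13.

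Among the HSP110 genes, which encode nucleotide exchange factors of HSP70, HSPH1 fell from 85.7, 84.8 and 79.9 FPKM to 57.4, 54.7 and 53.6 FPKM, with a log2 fold change of -0.59 ± 0.08 (limma adjusted p = 0.00140). HSPA4 was 1.17-fold lower by ratio of means without overlap but was not called (adjusted p = 0.109). HSPA4L read 1.68, 4.05 and 4.82 FPKM in vehicle and 2.26, 2.29 and 2.58 FPKM in DON, and it was not called (adjusted p = 0.356). Vehicle 1 stood apart there: without that library HSPA4L was lower in DON, at log2 fold change -0.69 and adjusted p = 0.00999.

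HSPB1 (HSP27), an ATP-independent holdase, was the only one of 3 small heat shock genes to reach the filter. It read 377, 333 and 363 FPKM in vehicle and 167, 172 and 154 FPKM in DON, a 2.18-fold fall with no overlap (log2 fold change -1.12 ± 0.09 SE, limma adjusted p = 0.000203). HSPB8, a partner of BAG3 in selective autophagy, was listed at the table's floor of 0.01 FPKM in all 6 libraries.

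CRYAB (alpha-B-crystallin), the remaining one and abundant in lens and muscle, was listed at 8.41 FPKM in vehicle 1. It was at 0.162 FPKM in vehicle 2, 0.01 in vehicle 3 and DON 1, 0.0679 in DON 2 and 0.146 in DON 3. CRYAB was therefore high in 1 vehicle library and near the floor in the other 5, and it was not tested. Of 20 genes of striated muscle, listed after these values were seen, 14 reached 1 FPKM in vehicle 1 and 1 to 3 did in each other library. Their sum was 92.0 FPKM in vehicle 1 and 4.17 to 8.25 FPKM elsewhere. ACTA1, skeletal muscle actin, stood at 25.0 FPKM in vehicle 1 and at 0.0782 to 1.10 FPKM in the others. MYH7, a slow myosin heavy chain, stood at 8.44 FPKM there and at 0.0179 to 0.280 FPKM elsewhere. PLN, TNNI3 and TNNT2 were at the floor in vehicle 1. The part of these transcripts in other values of vehicle 1 was not tested, and without that library 5 chaperone genes were called higher and 15 lower.

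**Figure D2:**
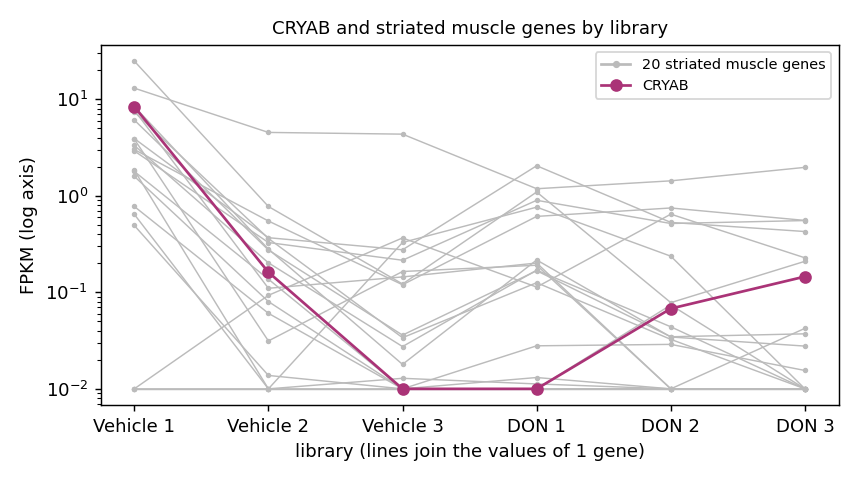
The x axis shows the 6 libraries and the log y axis shows FPKM. The coloured line is CRYAB, at 8.41 FPKM in vehicle 1, and grey lines are 20 striated muscle genes, most of which peak in the same library.

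HSP90 takes over clients from HSP70, and its paralogs parted. HSP90AA1, the stress-inducible cytosolic form, read 512, 460.2 and 448 FPKM in vehicle and 285, 272 and 251 FPKM in DON (log2 fold change -0.81 ± 0.09 SE, limma adjusted p = 0.000845). HSP90AB1, the constitutive form, read 641, 632 and 519 FPKM in vehicle and 695, 648 and 589 FPKM in DON. Its groups overlapped, and its log2 fold change of 0.11 had a 95% interval of -0.16 to 0.39 (adjusted p = 0.480). With a term for the split on the second principal component it was called higher (log2 fold change 0.19, adjusted p = 0.0417). Within a library, HSP90AB1 exceeded HSP90AA1 1.25-fold, 1.37-fold and 1.16-fold in vehicle and 2.44-fold, 2.39-fold and 2.35-fold in DON. These ratios did not overlap (exact permutation p = 0.1, two-sided, the smallest that 3 against 3 libraries allow). TRAP1, the mitochondrial HSP90, had means of 128 ± 4.74 FPKM in vehicle and 110.4 ± 10.4 FPKM in DON with no overlap (adjusted p = 0.106). Leaving out DON 1 gave a call of lower (log2 fold change -0.29, adjusted p = 0.0334).

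The mitochondrial chaperonin genes HSPD1 (HSP60) and HSPE1 (HSP10), whose proteins work as a barrel and its lid, lie head to head on chromosome 2. HSPE1 read 212, 193 and 248 FPKM in vehicle and 126, 156 and 153 FPKM in DON (log2 fold change -0.59 ± 0.13 SE, limma adjusted p = 0.0120), a call that did not pass with no filter on low values (0.0683). HSPD1 read 515, 567 and 462 FPKM in vehicle and 664, 592 and 534 FPKM in DON, with overlap, a log2 fold change of 0.21 and an interval of -0.07 to 0.49 (adjusted p = 0.198). With the split term HSPD1 was called higher (log2 fold change 0.29, adjusted p = 0.0110), and the difference was 0.30 and 0.28 inside the 2 sides. The level of HSPD1 was 2.42, 2.94 and 1.86 times that of HSPE1 in vehicle and 5.29, 3.80 and 3.49 times in DON. The 2 sets of ratios did not overlap (exact permutation p = 0.1, two-sided, again the smallest possible). The read-through transcript HSPE1-MOB4, which shares sequence with HSPE1, was listed at 1.31 FPKM in vehicle 1 and at the floor elsewhere.

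The stretch between their divergent starts is shown because both genes read outward from it. RefSeq places the HSPE1 start at position 197500379 on the plus strand and 1 of 2 HSPD1 starts at 197500274 on the minus strand, which leaves 104 bases (GRCh38.p14, chr2:197500275-197500378, plus strand). Below it stands a run of 4 heat shock units in capitals, at chr2:197500062-197500090 on the minus strand. That run lies before the other HSPD1 start, at 197499840, with its first base 245 bases upstream of it and 294 bases from the HSPE1 start.
Between HSPD1 and HSPE1: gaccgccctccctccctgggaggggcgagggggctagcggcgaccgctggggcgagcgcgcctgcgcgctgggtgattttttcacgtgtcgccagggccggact
HSPD1 element: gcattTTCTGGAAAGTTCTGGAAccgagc

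**Figure D3:**
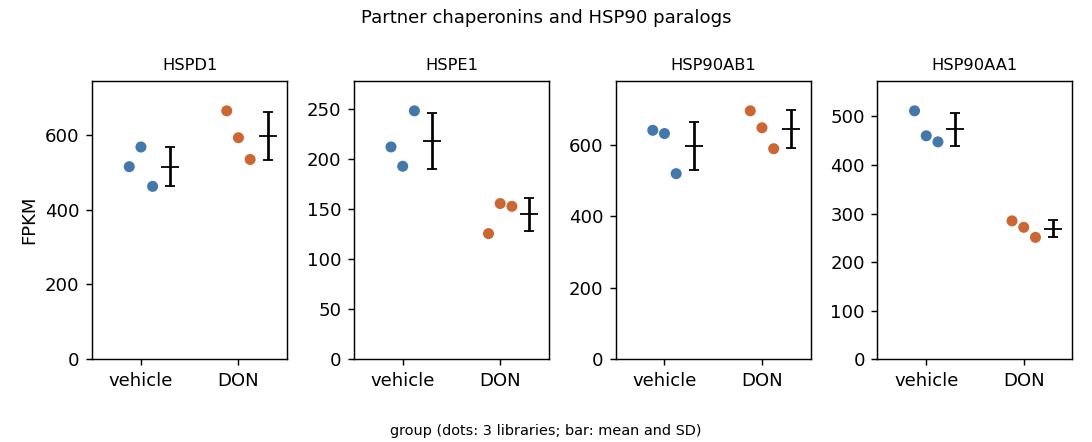
Panels show HSPD1, HSPE1, HSP90AB1 and HSP90AA1, with FPKM on a y axis that starts at 0 and the group on the x axis. Dots are 3 libraries per group and bars are mean and SD. HSPE1 and HSP90AA1 have DON values below all vehicle values, and their partners overlap between groups.

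J-proteins choose the clients of HSP70, and more of the 10 members rose than in any other of the 11 families. Of the 10, 5 rose and 2 fell (median log2 fold change 0.39). Those shares are 50% and 20%, beside 18.3% and 20.6% of all tested genes. Among 15 other tested DNAJ genes, from the wider list given below, 5 rose and 1 fell (median log2 fold change 0.07). The 2 members that fell were DNAJB1 and DNAJA1. DNAJB1 (HSP40) read 54.6, 56.8 and 56.9 FPKM in vehicle and 36.2, 36.6 and 39.9 FPKM in DON (log2 fold change -0.57 ± 0.08 SE, limma adjusted p = 0.00181). DNAJA1 went from 206 ± 8.16 to 159.7 ± 9.26 FPKM (adjusted p = 0.0132). Leaving out vehicle 2 (0.0551) or DON 3 (0.0513) ended that call.

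The 5 members that rose had groups apart in each case. DNAJB2, a J-protein with ubiquitin-interacting motifs, read 19.0, 24.1 and 15.8 FPKM in vehicle and 46.8, 38.2 and 33.3 FPKM in DON (log2 fold change 0.98 ± 0.18 SE, limma adjusted p = 0.00569, and 0.0512 with no filter). DNAJC2, the ribosome-associated partner of HSPA14, read 34.8, 26.5 and 38.5 FPKM in vehicle and 54.6, 63.2 and 73.7 FPKM in DON (0.93 ± 0.17, adjusted p = 0.00524). Its ratio to HSPA14 went from 1.06 ± 0.264 to 2.08 ± 0.306 without overlap (exact permutation p = 0.1, two-sided, the smallest possible). That test cannot reach 0.05 with so few libraries, so the ratios are a description of these libraries only. DNAJC7, which binds both HSP70 and HSP90, read 41.6, 50.0 and 48.2 FPKM in vehicle and 68.8, 77.3 and 78.8 FPKM in DON (adjusted p = 0.00262). DNAJB4 rose 1.61-fold, from 8.32 ± 1.23 to 13.4 ± 0.456 FPKM (adjusted p = 0.00582).

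DNAJA2, the constitutive relative of DNAJA1, read 55.2, 48.7 and 57.8 FPKM in vehicle and 65.9, 84.4 and 93.4 FPKM in DON (adjusted p = 0.0183). DNAJA2 missed the threshold when vehicle 1 (0.0503), vehicle 2 (0.0653), DON 2 (0.0710) or DON 3 (0.0540) was left out, and with no filter (0.0986). The remaining 3 were not called. DNAJA3, the mitochondrial J-protein, stood at 39.3 ± 3.77 and 44.3 ± 1.89 FPKM. DNAJA4 stood at 7.65 ± 1.05 and 8.98 ± 0.384 FPKM, and DNAJB6, which suppresses aggregation, at 49.6 ± 4.42 and 42.9 ± 2.24 FPKM.

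**Figure D4:**
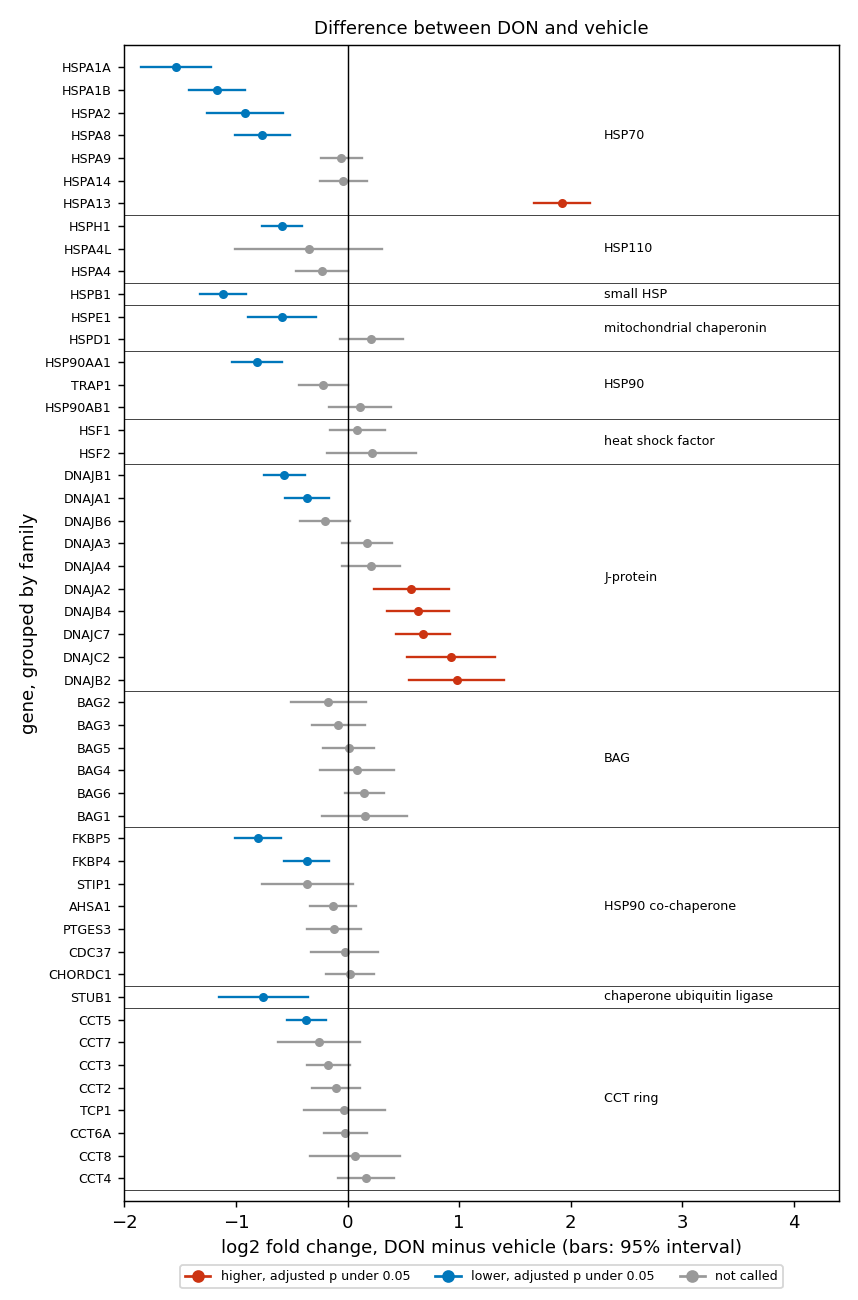
Dots are limma log2 fold changes on the log2(FPKM + 1) scale (DON minus vehicle) of the 50 tested genes, bars are 95% intervals, and genes are grouped by family. Red marks 6 genes called higher and blue 14 called lower, and grey genes were not called.

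Of the BAG proteins, which release clients from HSP70, 0 of 6 were called by limma (0 also at an unadjusted p under 0.05), beside 38.9% of all tested genes. Their log2 fold changes ran from -0.17 (BAG2) to 0.15 (BAG1). BAG3, a stress-inducible member that directs clients to autophagy, read 15.2, 13.8 and 16.9 FPKM in vehicle and 13.6, 15.2 and 14.3 FPKM in DON, and the 95% interval of its log2 fold change was -0.32 to 0.16. BAG6, which guards membrane proteins on their way to the ER, was 1.11-fold higher by ratio of means with no overlap (adjusted p = 0.154), and it was called higher with a correction for GC content (log2 fold change 0.32, adjusted p = 0.0343). BAG1 had its highest value, 51.3 FPKM, in DON 1, against 31.5 to 39.7 FPKM in the other 5 libraries. BAG4 stood at 14.3 ± 1.80 and 15.3 ± 2.44 FPKM and BAG5 at 10.5 ± 0.686 and 10.6 ± 0.780 FPKM.

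Of 7 HSP90 co-chaperones, 2 fell (28.6%, beside 20.6% of all tested genes) and 0 rose (beside 18.3%). Both that fell are immunophilins that ride on HSP90 in steroid receptor complexes. Not all such genes fell: PPID, an HSP90 immunophilin of the wider list given below, rose (log2 fold change 0.53, limma adjusted p = 0.00905). FKBP5 read 17.6, 16.7 and 17.1 FPKM in vehicle and 8.65, 9.98 and 9.64 FPKM in DON (log2 fold change -0.80 ± 0.09 SE, limma adjusted p = 0.000686). FKBP4 went from 37.4 ± 2.28 to 28.9 ± 1.47 FPKM (adjusted p = 0.0149), which did not hold when DON 2 (0.0678) or DON 3 (0.0598) was dropped. STIP1 (HOP), the bridge from HSP70 to HSP90, read 60.02, 64.0 and 83.3 FPKM in vehicle and 43.2, 55.2 and 62.3 FPKM in DON. It was not called (log2 fold change -0.36, adjusted p = 0.138), and inside each side of the principal component split the difference was -0.51 and -0.50. A term for the split, which was drawn from these same values, gave STIP1 a call of lower (log2 fold change -0.50, adjusted p = 0.000966). The ATPase activator AHSA1 stood at 87.0 ± 5.82 and 79.3 ± 3.76 FPKM and the kinase adaptor CDC37 at 50.05 ± 3.94 and 49.5 ± 7.90 FPKM. PTGES3 (p23), which closes the HSP90 cycle, stood at 302 ± 15.4 and 278 ± 28.6 FPKM. CHORDC1 stood at 22.5 ± 1.60 and 22.9 ± 1.33 FPKM.

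STUB1 (CHIP), the ubiquitin ligase that docks on HSP70 and HSP90, read 126, 117 and 91.4 FPKM in vehicle and 80.1, 60.5 and 57.04 FPKM in DON (log2 fold change -0.75 ± 0.17 SE, limma adjusted p = 0.0126). Vehicle 3 and DON 1 were the closest pair, with no overlap. STUB1 missed the threshold when DON 2 was left out (adjusted p = 0.0524) and with no filter (0.0847), and GC correction brought its log2 fold change to -0.46.

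Of the 8 CCT ring subunits, 1 fell (12.5%, beside 20.6% of all tested genes) and 0 rose (beside 18.3%), with a median log2 fold change of -0.06. CCT5 read 136, 148 and 143 FPKM in vehicle and 109.7, 111 and 109.2 FPKM in DON (log2 fold change -0.37 ± 0.07 SE, limma adjusted p = 0.00845). CCT3 also had groups apart, at 157, 157 and 172 against 137, 148 and 146 FPKM, but was not called (adjusted p = 0.136). CCT2, CCT4, CCT6A, CCT7, CCT8 and TCP1 overlapped between groups, with log2 fold changes from -0.26 (CCT7) to 0.16 (CCT4). The subunits sit in the ring in equal number, and their vehicle means ran from 141 (TCP1) to 276 FPKM (CCT8). CCT8 read 291, 314 and 222 FPKM in vehicle and 341, 280.4 and 243 FPKM in DON, with vehicle 3 and DON 3 lowest in their groups. CCT7 was called lower without DON 1 (log2 fold change -0.41, adjusted p = 0.0368).

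The heat shock factor genes were not called. HSF1 read 60.9, 54.5 and 48.8 FPKM in vehicle and 61.4, 57.8 and 54.9 FPKM in DON, a log2 fold change of 0.09 (with -0.16 to 0.33 as its 95% interval and an adjusted p of 0.535). With the GC correction HSF1 was called higher (log2 fold change 0.37, adjusted p = 0.0151). HSF2 stood at 6.53 ± 1.56 and 7.64 ± 0.659 FPKM (adjusted p = 0.342). HSF1 activity is set largely by its protein state, which was not measured.

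Runs of 3 exact heat shock units were looked for because HSF1 binds such repeats and stress-inducible members were among those that fell. Only exact units inside the promoter windows were searched. An element with inexact units, or one lying elsewhere, would be missed, so a gene without a match may still have one. A run of 3 units was searched on both strands as GAA, TTC and GAA, or TTC, GAA and TTC, with any 2 bases between neighbours, and every such run also counts among the matches of 2 units. Of the 52 genes, 45 had at least 1 RefSeq promoter window, and 7 of these 45 held such a run, against 0.608% of all 27305 symbols. DON lowered 3 of the 7 (HSPA8, HSP90AA1, DNAJA1), and the other 4 were not called (HSPD1, HSP90AB1, DNAJB6, CHORDC1). Among genes with a window, a run was held by 3 of 12 called lower, 4 of 26 not called and 0 of 6 called higher. Whether runs go with direction was not tested. The matches are descriptions of letters and do not show binding. They are printed with the units in capitals, from genes that fell and then genes not called.
HSPA8 (chr11:123062348-123062372, minus): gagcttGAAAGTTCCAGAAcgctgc
HSPA8 (chr11:123062173-123062197, minus): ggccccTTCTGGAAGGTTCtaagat
HSP90AA1 (chr14:102087114-102087138, minus): gggttcTTCCGGAAGGTTCgggagg
DNAJA1 (chr9:33025276-33025288, plus, just after the start): GAACTTTCCAGAA
HSP90AB1 (chr6:44247772-44247796, plus): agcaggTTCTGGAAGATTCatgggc
HSP90AB1 (chr6:44247825-44247849, plus): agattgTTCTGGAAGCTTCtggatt
DNAJB6 (chr7:157336867-157336891, plus): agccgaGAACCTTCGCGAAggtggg
CHORDC1 (chr11:90223081-90223115, minus): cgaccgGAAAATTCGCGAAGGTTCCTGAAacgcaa
CHORDC1, whose run is the longest of these with 5 units, had a 95% interval of -0.19 to 0.24 on the log2 scale, and of the genes with 2 separate runs HSPA8 fell and HSP90AB1 was not called.

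Of 13 ER relatives of these chaperones, 10 rose and 1 fell (median log2 fold change 1.29), beside 18.3% and 20.6% of all tested genes. This list was known from earlier results to rise, so its count is a description and not a test. HSPA5, the ER HSP70, stood at 0.160, 0.158 and 0.112 times the level of HSPA8 in vehicle and at 1.94, 1.39 and 1.32 times that level in DON. HSP90B1, the ER HSP90, was at 0.846 ± 0.0786 times HSP90AA1 in vehicle and 6.17 ± 0.130 times in DON. In vehicle the cytosolic transcript was thus the more abundant of each pair, and in DON the ER transcript was, in every library. HYOU1, the ER relative of HSP110, rose 5.13-fold, while HSPH1 fell 1.51-fold. SERPINH1, a collagen chaperone of the ER that is known as a heat shock gene, was the 1 that fell, from 88.8 ± 4.50 to 69.2 ± 2.86 FPKM (limma adjusted p = 0.0133). SERPINH1 missed the threshold when vehicle 2 (0.0548) or DON 2 (0.0699) was dropped and with GC correction (0.101).

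The element of ER stress genes was searched on either strand as CCAAT and CCACG with any 9 bases between. It was found in 0 of the 45 genes with a window, HSPA13 included, and in 2 of 12 ER relatives with one, against 0.0916% of all symbols. ER relatives that rose without a match included HYOU1, DNAJB9 and DNAJC3. Only exact matches inside the windows were searched, so a gene without one may still have such an element. The match is shown for those 2 ER relatives, in capitals, since they stand opposite HSPA8 and HSP90AA1. In the last stretch it lies on the opposite strand, and its letters read as CGTGG and ATTGG.
HSPA5 (chr9:125241385-125241415, minus): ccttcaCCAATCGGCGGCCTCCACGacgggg
HSP90B1 (chr12:103930210-103930240, plus): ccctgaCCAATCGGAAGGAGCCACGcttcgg
HSP90B1 (chr12:103930315-103930345, plus): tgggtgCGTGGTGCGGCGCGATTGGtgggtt

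**Figure D5:**
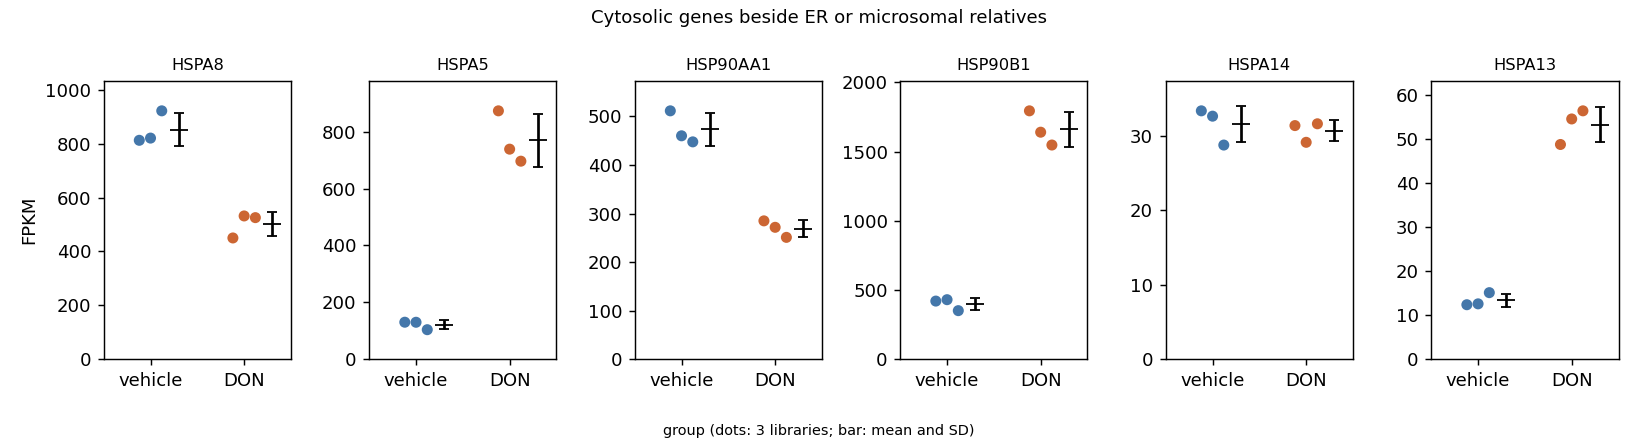
Panels pair the cytosolic HSPA8 and HSP90AA1 with the ER genes HSPA5 and HSP90B1, and HSPA14 with the microsomal HSPA13. The y axes are FPKM from 0, each with its own range, dots are 3 libraries per group, and bars are mean and SD. HSPA8 and HSP90AA1 are lower in DON, and HSPA5, HSP90B1 and HSPA13 are higher.

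By compartment, 1 of 5 mitochondrial members fell (HSPE1, 20%, beside 20.6% of all tested genes) and 0 rose, with HSPA9, HSPD1, TRAP1 and DNAJA3 not called. A wider list of 75 other chaperone network genes, from prefoldin to tubulin cofactors, had 63 tested, of which 14 rose and 14 fell (median log2 fold change -0.01). That is 22.2% each way, near the 18.3% called higher and 20.6% called lower among all tested genes. By log2 fold change on the log2(FPKM + 1) scale, the largest rises were PFDN2, a prefoldin subunit that hands actin and tubulin to CCT (2.03-fold, adjusted p = 0.000156), GRPEL2, a nucleotide exchange factor of HSPA9 (1.91-fold, 0.00221), and HSCB, the J-protein of iron-sulfur cluster assembly (1.78-fold, 0.00197). Their folds here are ratios of means, which rank the genes that rose in another order. On that log2 scale the largest falls were CLPB, a mitochondrial disaggregase (2.35-fold, adjusted p 0.00126), TELO2, a co-chaperone of HSP90 for PI3K-like kinases (1.91-fold, 0.0195), and TBCD, a tubulin cofactor (1.91-fold, 0.0142). The calls of TELO2 and TBCD were lost when any of vehicle 1, vehicle 2 or DON 2 was left out, and that of TELO2 also without DON 3 (adjusted p 0.0513 to 0.0717). With no filter on low values neither was called (TELO2 0.123, TBCD 0.0973). Of 6 prefoldin genes 2 rose (33.3%, beside 18.3% of all tested genes) and 0 fell. HSPA6, an HSP70 that is transcribed almost only under strong heat shock, was at 0.01 to 0.402 FPKM and was not tested.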

How the data were processed

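Poly(A) RNA was made into strand-directed libraries and read as single 75 bp reads, per the labels' protocols. STAR and hg19 are named without version in the submitters' processing notes. How FPKM were computed, and on which annotation, is not given in the sources used here. In the deposited data, the authors gave 1 FPKM table with a floor of 0.01. Columns named control were taken as vehicle by number. Rows with a failure mark (41, no chaperone gene among them) were left out. KRT8 and KRT18, listed as epithelial markers, were not analysed here.

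Log2(FPKM + 1) values, which understate changes of low genes, were compared in R 4.3.3 by the moderated test of limma 3.58.1, with its trend option, two-sided, with Benjamini-Hochberg adjustment over all 11471 genes at 0.05. The step was tested on simulated data. Ratios of 2 genes within a library (8 pairs, adjusted p 0.114 for 7 and 0.200 for HSPA1A to HSPA1B) were compared by exact permutation. Folds beside FPKM are ratios of means. The members, lists and pairs were chosen with earlier results of these data known. Every chaperone gene is named, as are HSPA5, HSP90B1, HYOU1 and the 3 largest called log2 fold changes each way of the wider list. SERPINH1, HSPA6, PPID, HSPE1-MOB4, the muscle genes and the printed sequences were picked after values were seen. The filter asked for 1 FPKM in 3 libraries. Alternatives were quantile normalization, median-of-ratios scaling, no trend, a pseudocount of 0.1, a higher filter (5 FPKM) or none, a replicate block, a term for the split, GC correction (loess, span 0.4, for the 95.0% of genes with GC from GENCODE) and leaving out each library. Python 3.11.15, pandas 2.3.3, numpy 2.4.6, scipy 1.17.1 and matplotlib 3.10.9 were used.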

Additional observations from a re-analysis of the deposited data

How the results depend on the processing

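Of the 20 called genes, 14 were called in each of the 15 alternatives (4 higher, 10 lower), and the direction of called genes did not turn in any. The term for the split raised the number called higher from 6 to 10, adding HSPD1, HSP90AB1, BAG1 and CCT4. It gave 18 called lower, adding BAG2, STIP1, PTGES3 and CCT3. Calls rose with that term over all 11471 tested genes too, from 2096 higher and 2363 lower to 2884 and 3147. The split was drawn from the same values as the calls, so these added calls are not independent support. Leaving out each library gave 5 to 6 higher and 12 to 16 lower. No filter gave 4 and 12, and GC correction 8 and 14, adding HSF1 and BAG6 to those higher. Whether same-numbered libraries pair was not settled. Their correlations of deviations were 0.254, -0.184 and 0.502, against -0.566 to 0.389 for differently numbered libraries. The replicate block gave 6 chaperone genes higher and 15 lower, adding STIP1 (limma adjusted p = 0.0157). With that block, 2551 of all tested genes were called higher and 2863 lower. Of the 30 genes not called, 10 changed sign in at least 1 alternative, and a change of sign without a call was not counted as a reversal. Over all genes, leaving out DON 2 gave 1185 higher and 1504 lower, and no filter 1391 and 1551, against 2096 and 2363. FPKM hold no depth, so counting error is unknown.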
